A study of Mus musculus with 56 samples.

Results

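The expression of 7 genes of the mouse tibialis anterior, a shin muscle, is described here: Ces1d, Plin4, Fam57b, Adhfe1, Klhl33, Nt5c1a and Magix. They are 7 of the 14870 genes of the deposited table and were picked by name as the largest falls in messenger RNA after injection of an adeno-associated virus (AAV). The choice therefore used the AAV and saline values of the same libraries, and those values are given below as a description, without a test. At 21 days post injection (dpi) in homozygous muscle the saline mean was 9.85 times the AAV mean for Ces1d, 7.94 times for Fam57b, 5.58 times for Adhfe1, 5.5 times for Plin4, 5.28 times for Magix, 4.62 times for Nt5c1a and 3.7 times for Klhl33. In muscles that received saline, homozygous mice also had less messenger RNA of these genes than wild-type mice when the 3 days were averaged, and that comparison could be tested. The average was chosen after the day-by-day values were seen, and its saline libraries also entered the choice of the genes. On single days none of the 7 reached an adjusted p under 0.05 (limma). The working name of the set, lipid and muscle enzyme genes, covers 5 of the 7. Klhl33 encodes a kelch-repeat protein and Magix a PDZ-domain protein, and neither is known as an enzyme.

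The study used mice with a titin mechanical knock-out (mKO) allele, in which titin, the elastic giant of the sarcomere, carries a cleavage site for TEV protease. The virus encoded TEV protease fused to green fluorescent protein (GFP), so that titin is cut in muscle that has the site. The groups were homozygous mKO muscle given AAV at 3, 7 and 21 dpi (4, 5 and 4 libraries) and saline (4, 4 and 4), heterozygous mKO muscle at 7 dpi given AAV (4) and saline (4), and wild-type muscle given AAV at 3, 7 and 21 dpi (5, 4 and 4) and saline (3, 3 and 4). Wild-type AAV muscle received the same virus and protease but has no cut site in titin. That made 56 libraries in 14 groups, assigned by their titles. The promoter that drives the protease, the age and sex of the mice, and whether the libraries of a group came from separate animals are not stated in the labels, so p-values measure the spread between libraries, part of which may be technical.

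As background, skeletal muscle stores fatty acids as triacylglycerol in lipid droplets. Perilipins coat these droplets, hydrolases release the fatty acids, and mitochondria oxidise them. Ces1d (carboxylesterase 1D) is a triacylglycerol hydrolase of the endoplasmic reticulum, studied mostly in liver and fat. Plin4 (perilipin 4) is a droplet coat protein of white fat that skeletal and heart muscle also make. Fam57b, named Tlcd3b in RefSeq, is a TLC-domain membrane protein linked to ceramide synthesis. Adhfe1 is a mitochondrial hydroxyacid-oxoacid transhydrogenase, which oxidises 4-hydroxybutyrate while turning 2-oxoglutarate into D-2-hydroxyglutarate. Nt5c1a is a cytosolic 5′-nucleotidase that makes adenosine out of AMP, and its human counterpart is an autoantigen in inclusion body myositis. Klhl33 belongs to the kelch-like family, many members of which bring substrates to Cul3 ubiquitin ligases, and its own role is not established. Magix is an X-linked PDZ-domain gene of which little is known.

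All 7 genes are protein coding. In GENCODE M21 (GRCm38), Ces1d (ENSMUSG00000056973) lies on the minus strand of chromosome 8 at 93166068 to 93197838, and Plin4 (ENSMUSG00000002831) on the minus strand of chromosome 17 at 56100591 to 56109803. Fam57b (ENSMUSG00000058966) lies on the plus strand of chromosome 7 at 126797668 to 126830219, and Adhfe1 (ENSMUSG00000025911) on the plus strand of chromosome 1 at 9547948 to 9580673. Klhl33 (ENSMUSG00000090799) lies on the minus strand of chromosome 14 at 50888582 to 50897507, Nt5c1a (ENSMUSG00000054958) on the plus strand of chromosome 4 at 123201504 to 123216275, and Magix (ENSMUSG00000031147) on the minus strand of chromosome X at 7673164 to 7681251. The 7 genes are thus on 7 different chromosomes. Exons of Plin4 overlap those of Hdgfl2 on the opposite strand by 17 bases, exons of Fam57b overlap Aldoa by 25 bases and exons of Adhfe1 overlap 2610203C22Rik by 154 bases. The library kit keeps strand, but whether the counting used strand is not stated in these sources, so reads of these overlaps could be shared. Ces1d belongs to a cluster of closely similar carboxylesterase genes, among which reads may have been divided.

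The promoters of the 7 genes, whose common fall was set by their choice, were searched for 5 motifs on both strands. The windows ran from 250 bases before to 50 bases after each RefSeq gene start (GRCm38.p6). Windows were held for 5 of the 7 genes, 9 windows in all, and Ces1d and Adhfe1 had none. Shares are of all 32851 promoter windows of this length. The MEF2 core TAAAAATA was present in 2.72% of windows. An E-box, spelled CAGCTG, was present in 16.3%. The site of oestrogen-related receptors, searched as AAGGTCA, was present in 4.72%. The TATA box was searched as TATAAA and was present in 13.62%. The Klf-type element CCCCACCC was present in 9.99%. The 9 windows held 3 matches, in 2 of them. Nt5c1a held CCCCACCC starting 98 and 91 bases before its start, in overlapping copies, in a window rich in G and C (70.3%, against a median of 52.7% over all windows) with 24 CG pairs (median 7). The second of 3 Fam57b windows held TATAAA on the opposite strand, 228 bases before the start, where the printed strand reads TTTATA. The Plin4, Klhl33 and Magix windows and the other Fam57b windows held none of these letters. A match is a description of the sequence and not a shown binding site. The 2 windows with matches are printed with the matches in capitals, and the Plin4 window (65% G and C) is printed beside them as that of the most abundant lipid gene of the set. They span chr4:123201235-123201534 on the plus strand, chr7:126823053-126823352 on the plus strand and chr17:56109733-56110032 on the minus strand.
Nt5c1a: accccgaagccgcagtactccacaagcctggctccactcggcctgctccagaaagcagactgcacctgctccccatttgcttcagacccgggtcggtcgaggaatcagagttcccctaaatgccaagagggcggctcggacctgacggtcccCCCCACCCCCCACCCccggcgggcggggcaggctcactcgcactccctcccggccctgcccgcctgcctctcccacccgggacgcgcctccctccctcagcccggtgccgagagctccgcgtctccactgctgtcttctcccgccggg
Fam57b: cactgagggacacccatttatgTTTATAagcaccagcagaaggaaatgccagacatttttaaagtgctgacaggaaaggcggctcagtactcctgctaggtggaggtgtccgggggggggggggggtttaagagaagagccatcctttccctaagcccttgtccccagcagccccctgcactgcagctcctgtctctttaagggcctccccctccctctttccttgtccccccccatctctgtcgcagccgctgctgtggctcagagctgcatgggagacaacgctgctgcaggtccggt
Plin4: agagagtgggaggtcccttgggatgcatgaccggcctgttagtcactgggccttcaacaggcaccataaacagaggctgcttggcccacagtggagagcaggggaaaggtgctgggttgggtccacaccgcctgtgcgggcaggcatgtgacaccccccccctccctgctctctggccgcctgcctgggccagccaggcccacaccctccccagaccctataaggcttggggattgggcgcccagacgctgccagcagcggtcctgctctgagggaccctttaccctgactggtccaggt

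Values are the authors' normalised counts, scaled to an effective library size that differs from the read total. At 21 dpi it was 1.113 to 1.493 times the read total in homozygous AAV libraries. In homozygous saline libraries of that day it was 0.867 to 0.92 times. The ratios given here include this scaling, which makes the falls larger than per total reads. Libraries held 6.9 to 27.18 M reads (M, 1e6 reads; median 21.69 M), and the second lowest held 14.98 M. Reads per library were 297 to 8243 for Plin4, 230 to 9281 for Klhl33, 59 to 1632 for Fam57b, 64 to 1056 for Adhfe1, 40 to 781 for Magix, 15 to 1259 for Ces1d and 6 to 165 for Nt5c1a, whose values are therefore the least precise. The protease transgene had 56 to 34407 reads in AAV libraries and 0 to 6 in saline libraries. Myofibre markers of the labelled tissue were all in the table at high summed levels. Their sum had a median of 114868 (84781 to 169707) in homozygous AAV muscle at 21 dpi, against 226072 (214207 to 234738) in homozygous saline muscle. In bulk tissue, fewer cells of a type and less RNA per cell cannot be told apart.

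**Figure D1:**
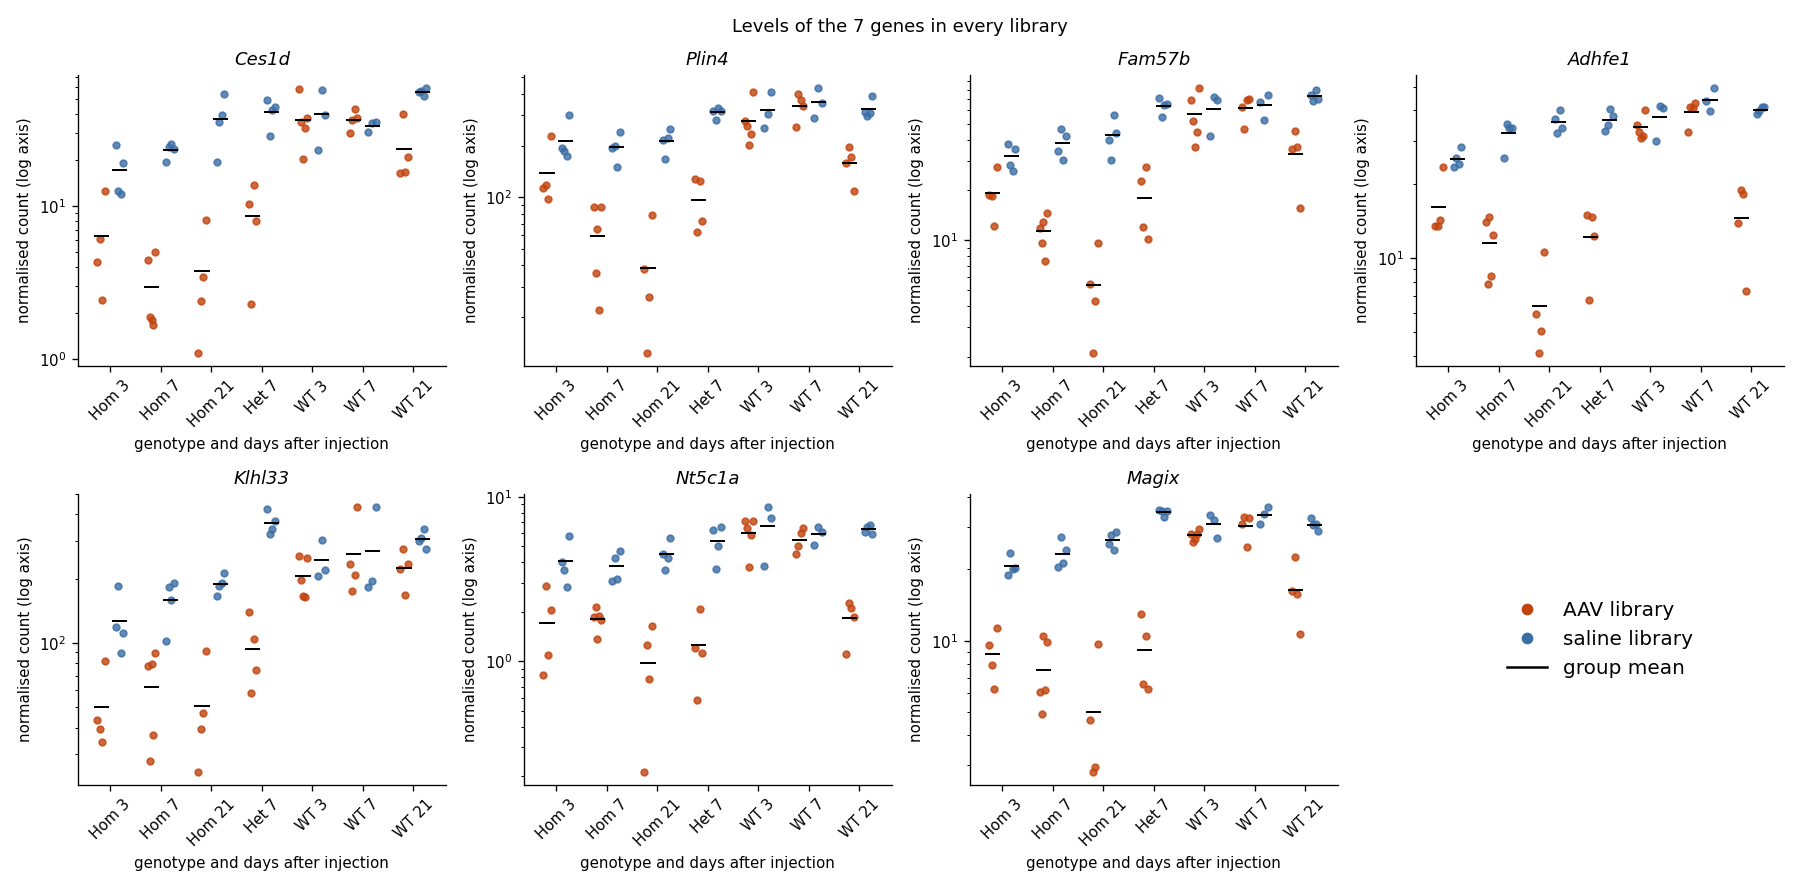
Normalised count of each of the 7 genes in each of the 56 libraries, on a log axis, by genotype and days after injection, with AAV libraries left of saline libraries and a line at each group mean. The AAV and saline values shown chose the genes. AAV libraries lie below all saline libraries for all 7 genes in homozygous muscle at 7 dpi (17% of all genes) and 21 dpi (22.5%). The same holds in heterozygous muscle at 7 dpi (21%), and for 6 of the 7 in wild-type muscle at 21 dpi (19.9%). The groups overlap in wild-type muscle at 3 and 7 dpi.

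Ces1d, the triacylglycerol hydrolase, was the gene with the lowest AAV minus saline change of all tested genes in homozygous muscle at 21 dpi. Its normalised counts were 1.1, 2.42, 3.45 and 8.15 in homozygous AAV libraries at 21 dpi, against 19.6, 35.6, 39.3 and 54.3 in homozygous saline libraries. The highest AAV library was below the lowest saline library by more than a factor of 2. At 7 dpi the 5 homozygous AAV libraries held 4.47, 1.88, 1.81, 1.69 and 5.04, against 19.6, 24.5, 25.5 and 23.6 in saline. At 3 dpi the AAV mean was 6.37 ± 4.41 (SD, n = 4), against 17.3 ± 6.31 (SD, n = 4) in saline, and the highest AAV library, 12.6, lay within the saline range of 12 to 25.4. In heterozygous muscle at 7 dpi the AAV libraries held 10.4, 2.31, 13.9 and 8.03, against 49.6, 29.0, 42.4 and 44.4 in saline, again without overlap. Wild-type AAV muscle at 21 dpi held 16.6, 40.2, 16.7 and 21.1, against 53.1 to 59.4 in wild-type saline muscle. At 3 and 7 dpi the wild-type AAV means of 37.0 ± 13.8 (SD, n = 5) and 37.0 ± 5.45 (SD, n = 4) lay near the saline means of 40.1 ± 17.1 and 33.7 ± 2.64 (SD, n = 3 each), and the ranges overlapped. Over the 14 groups Ces1d was highest in wild-type saline muscle at 21 dpi (56.1 ± 2.59, SD, n = 4) and lowest in homozygous AAV muscle at 7 dpi (2.98 ± 1.63, SD, n = 5), where its range overlapped that at 21 dpi.

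Plin4, the lipid droplet coat protein, held 37.9, 12.3, 26.0 and 78.7 in homozygous AAV libraries at 21 dpi, against 215, 167.6, 220.4 and 248.6 in homozygous saline libraries. The AAV libraries differed by more than 6 times among themselves, and all lay under the lowest saline library. The homozygous AAV mean was 138.8 ± 60.1 at 3 dpi (SD, n = 4), 59.7 ± 29.9 at 7 dpi (SD, n = 5) and 38.7 ± 28.6 at 21 dpi (SD, n = 4), while the saline means were 213.5 ± 58.7, 195.4 ± 36.5 and 212.9 ± 33.6 (SD, n = 4 each). At 3 dpi the ranges overlapped, with AAV libraries at 97.2 to 228.0 and saline libraries at 174.4 to 300.8. In heterozygous muscle the AAV libraries reached 62.3 to 127.9, against 280.4 to 329.4 in saline. Wild-type AAV muscle at 21 dpi held 108.7 to 195.9, against 296.0 to 388.6 in wild-type saline muscle, a saline mean 2.06 times the AAV mean. At 7 dpi the wild-type AAV range, 256.7 to 402.2, lay within the range of 290.2 to 432.8 in saline except at its low end. Plin4 was highest in wild-type saline muscle at 7 dpi (359.1 ± 71.4, SD, n = 3), not apart from wild-type AAV muscle on that day, and lowest in homozygous AAV muscle at 21 dpi.

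Fam57b, the ceramide-linked membrane protein, held 5.48, 2.1, 4.31 and 9.64 in homozygous AAV libraries at 21 dpi, against 40.0, 30.1, 56.7 and 44.1 in saline. Its saline mean at 21 dpi was 7.94 times the AAV mean, and the ratio was 1.66 at 3 dpi and 3.39 at 7 dpi. The groups overlapped at 3 dpi, with 12.1 to 27.6 in AAV and 25.9 to 37.9 in saline, and not at 7 dpi, with 7.52 to 14.6 in AAV and 30.2 to 46.4 in saline. In heterozygous muscle the AAV libraries held 22.5, 12, 27.3 and 10.1, against 71.1, 54.9, 64.8 and 65.2 in saline. Wild-type AAV muscle at 21 dpi held 35, 45.3, 36.0 and 15.5, against 68.2 to 79.1 in saline, and the fourth library was the lowest. Fam57b averaged 73.1 ± 4.73 in wild-type saline muscle at 21 dpi (SD, n = 4), its highest group, and 5.38 ± 3.16 in homozygous AAV muscle at 21 dpi (SD, n = 4), its lowest. Aldoa, the glycolytic enzyme whose exons it overlaps, also fell in homozygous AAV muscle at 21 dpi, by 1.03 ± 0.15 on the log2 scale (adjusted p = 1.04e-07, limma). Hdgfl2, the neighbour of Plin4, rose by 0.34 ± 0.12 (adjusted p = 0.0145, limma).

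Adhfe1, the mitochondrial transhydrogenase, held 5.91, 4.11, 5.05 and 10.6 in homozygous AAV libraries at 21 dpi, against 36.8, 32.4, 40.3 and 33.8 in saline. Homozygous AAV libraries were below all homozygous saline libraries on every day, at 13.5 to 23.5 against 23.6 to 28.5 at 3 dpi and at 7.84 to 14.7 against 25.6 to 35.2 at 7 dpi. Heterozygous AAV libraries held 6.73 to 15, against 32.9 to 40.4 in saline. In wild-type muscle at 21 dpi Adhfe1 held 13.9, 19.0, 18.3 and 7.38 in AAV libraries, against 38.6 to 41.1 in saline, a saline mean 2.74 times the AAV mean. On the log2 scale, with 1 added to each value, its wild-type change at 21 dpi was the lowest of the 7 genes. By ratio, Nt5c1a fell more (3.46 times). At 3 and 7 dpi the wild-type AAV ranges of 31.0 to 40.2 and 32.7 to 42.7 overlapped the saline ranges of 30.1 to 41.5 and 39.9 to 49.3.

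Nt5c1a, the AMP nucleotidase, was the least abundant of the set. It held 0.213, 1.25, 0.785 and 1.64 in homozygous AAV libraries at 21 dpi, against 4.5, 3.6, 4.25 and 5.6 in saline, with no overlap. The lowest of these values stood on 6 reads. Its homozygous AAV mean was 1.71 ± 0.927 at 3 dpi (SD, n = 4), 1.81 ± 0.274 at 7 dpi (SD, n = 5) and 0.972 ± 0.614 at 21 dpi (SD, n = 4), against 4.06 ± 1.25, 3.79 ± 0.815 and 4.49 ± 0.835 in saline (SD, n = 4 each). The 3 dpi ranges overlapped at their edge, at 0.829 to 2.85 in AAV and 2.83 to 5.78 in saline. Heterozygous AAV libraries held 0.582 to 2.09, against 3.64 to 6.54 in saline. Wild-type AAV muscle at 21 dpi held 1.11, 2.27, 2.1 and 1.86, against 5.96 to 6.75 in saline, and the saline mean was 3.46 times the AAV mean, the largest such ratio of the 7 genes in wild-type muscle. Because 1 is added before logs are taken, the log2 changes of Nt5c1a understate its ratios.

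Klhl33, the kelch-like gene, held 24.8, 39.4, 46.7 and 91.9 in homozygous AAV libraries at 21 dpi, against 165.5, 183.7, 190.3 and 211.7 in saline. Homozygous AAV means were 49.8 ± 21.8 at 3 dpi (SD, n = 4), 62.3 ± 27.8 at 7 dpi (SD, n = 5) and 50.7 ± 28.9 at 21 dpi (SD, n = 4), which differed by less than their SDs. The saline means were 125.9 ± 40.4, 158.3 ± 40.3 and 187.8 ± 19.1 (SD, n = 4 each), and no AAV library reached the saline range on any of the 3 days. In heterozygous muscle at 7 dpi the AAV libraries held 138.6, 58.2, 103.7 and 74.6, against 423.8, 323.3, 342.5 and 371.2 in saline. In wild-type muscle at 21 dpi it was the only 1 of the 7 genes whose groups overlapped, with 221.9, 276.4, 166.5 and 234.5 in AAV libraries and 298.9, 308.3, 339.9 and 275.5 in saline libraries. Its wild-type saline libraries at 7 dpi were far apart, at 181.9, 194.4 and 433.4. Klhl33 was highest in heterozygous saline muscle (365.2 ± 43.7, SD, n = 4) and about equally low in the 3 homozygous AAV groups.

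Magix, the X-linked PDZ gene, held 4.63, 2.81, 2.96 and 9.73 in homozygous AAV libraries at 21 dpi, against 25.6, 27.9, 24.1 and 28.7 in saline. AAV libraries were below all saline libraries in homozygous muscle at 3 dpi (6.27 to 11.3 against 18.8 to 23.4) and at 7 dpi (4.93 to 10.5 against 20.3 to 27.3). Heterozygous muscle showed the same order, with 6.28 to 13 in AAV and 33.0 to 35.5 in saline. Wild-type AAV libraries at 21 dpi held 16.1, 22.5, 15.7 and 10.7, against 32.8, 30.6, 30.8 and 28.8 in saline. At 3 and 7 dpi the wild-type AAV ranges of 25.9 to 29.6 and 24.7 to 33.1 overlapped the saline ranges of 27.1 to 33.6 and 31.0 to 36.5. Magix, Adhfe1 and Nt5c1a varied least within groups, with pooled SDs of 0.31, 0.31 and 0.32 on the log2 scale. Ces1d was the most variable, at 0.57.

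Levels can be set side by side between genes per kilobase of merged exons. On that scale wild-type saline muscle at 21 dpi held 56.7 normalised counts per kilobase of Plin4 (51.2 to 67.3 over 4 libraries) and 48.5 of Klhl33 (43.7 to 53.9), whose ranges overlapped. Ces1d followed at 23.7 (22.4 to 25.1), then Fam57b at 18.6 (17.3 to 20.1). Adhfe1 at 10.6 (10.2 to 10.9) and Magix at 10.6 (9.89 to 11.3) overlapped, and Nt5c1a was lowest at 5.2 (4.89 to 5.53). The set thus mixes abundant with scarce transcripts.

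On the log2(value + 1) scale, which understates the changes of low genes, the AAV minus saline changes of homozygous muscle at 21 dpi were -3.12 ± 0.38 (SE) for Ces1d, -2.88 ± 0.29 for Fam57b, -2.70 ± 0.34 for Plin4, -2.38 ± 0.21 for Adhfe1, -2.32 ± 0.21 for Magix, -2.02 ± 0.32 for Klhl33 and -1.52 ± 0.22 for Nt5c1a. These values chose the genes and carry no test. Ordered over all 13017 tested genes, they were ranks 1, 2, 6, 9, 12, 25 and 116. Of the lowest 12 genes, 5 were of this set, and just outside it were Gm10221 (-2.87, rank 3), Gm14440 (-2.76, rank 4) and Myl3, a slow myosin light chain (-2.71, rank 5). In heterozygous muscle Ces1d was again rank 1, Klhl33 was rank 2 and Nt5c1a rank 29. In homozygous muscle at 3 dpi the ranks ran from 6 for Ces1d to 302 for Fam57b, 461 for Plin4 and 491 for Adhfe1. At 7 dpi they ran from 2 for Ces1d to 32 for Klhl33 and 495 for Nt5c1a. The heterozygous changes at 7 dpi were -2.30 for Ces1d, -2.02 for Klhl33, -1.88 for Fam57b and Magix, -1.75 for Plin4, -1.56 for Adhfe1 and -1.52 for Nt5c1a.

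**Figure D2:**
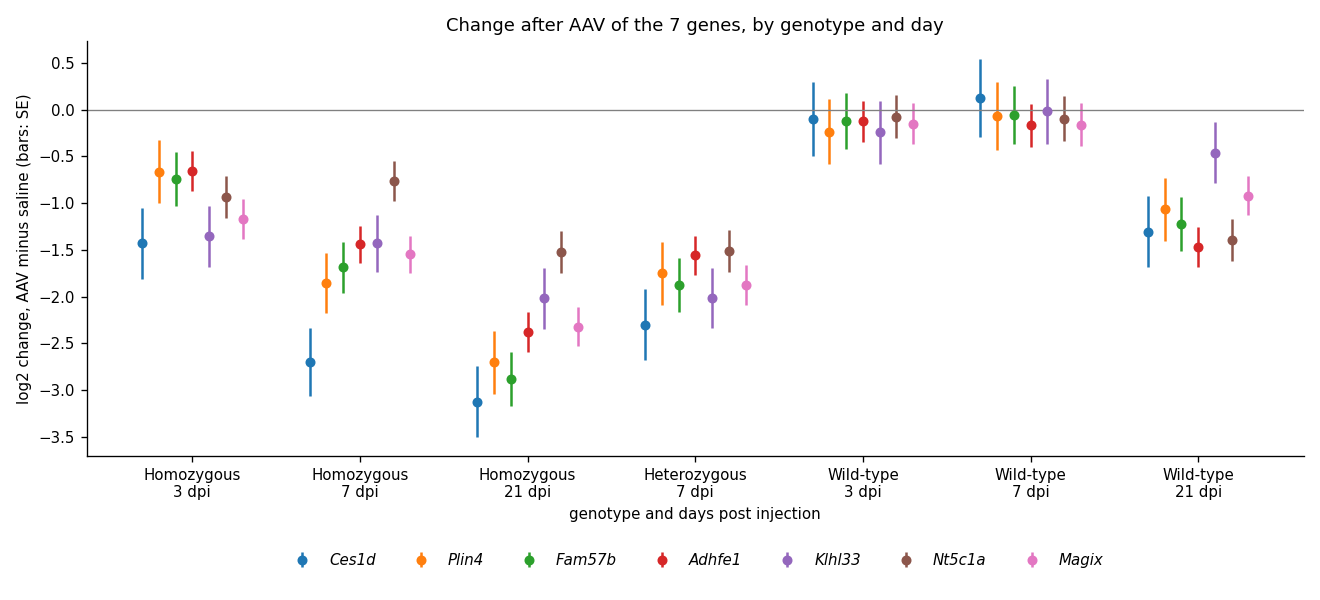
Log2 change, AAV minus saline, of each of the 7 genes in the 7 comparisons of genotype and day, with bars of 1 SE, on the log2(value + 1) scale. In homozygous muscle the median over the 7 genes was -0.93 at 3 dpi, -1.55 at 7 dpi and -2.38 at 21 dpi, and in wild-type muscle it was near 0 at 3 and 7 dpi and -1.22 at 21 dpi.

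By day, the median change over the 7 genes in homozygous muscle was -0.93 at 3 dpi, -1.55 at 7 dpi and -2.38 at 21 dpi, beside medians between -0.01 and 0 over all tested genes. The order of the genes changed with time. At 3 dpi Ces1d (-1.43), Klhl33 (-1.36) and Magix (-1.17) were lowest and Adhfe1 (-0.65) and Plin4 (-0.67) least changed, while at 21 dpi Plin4 had passed Klhl33 and Magix. Klhl33 reached -1.43 at 7 dpi, next to -1.36 at 3 dpi. At 7 dpi, the day all genotypes share, the median was -1.55 in homozygous, -1.88 in heterozygous and -0.07 in wild-type muscle. The mean transgene level of AAV libraries on that day was 22.4 in homozygous, 86.6 in heterozygous and 239.5 in wild-type muscle. At 3 and 21 dpi it was 49.4 and 640.4 in homozygous muscle, and 17.2 and 756.1 in wild-type muscle. The part of the transgene level in the changes was not tested. In wild-type muscle at 21 dpi, where the virus acts without a cut site, the median was -1.22, and the members ran from -1.47 for Adhfe1 and -1.39 for Nt5c1a to -0.46 for Klhl33. Ranks in that comparison were 9 for Adhfe1, 13 for Nt5c1a, 19 for Ces1d, 27 for Fam57b, 64 for Plin4, 132 for Magix and 1448 for Klhl33. Whether the genotypes differ in these changes was not tested, since the same changes chose the genes.

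The background of these counts was as follows, with called meaning an adjusted p under 0.05 (limma, Benjamini-Hochberg adjustment over all tested genes). In homozygous AAV muscle 17.2% of genes were called lower and 17.4% higher at 3 dpi, 22.5% and 20.6% at 7 dpi, and 29.6% and 29.7% at 21 dpi. In heterozygous AAV muscle the shares were 20.8% and 19.6%, and in wild-type AAV muscle at 21 dpi 21.3% and 19.7%. In wild-type AAV muscle at 3 and 7 dpi limma called 0% lower and 0% higher. Unadjusted p-values there were under 0.05 for 430 and 210 genes, edgeR called 0 and 0 genes and DESeq2 8 and 7. All AAV libraries lay below all saline libraries for 3 of the 7 genes at 3 dpi in homozygous muscle (13.4% of all genes), 7 of 7 at 7 dpi (17%), 7 of 7 at 21 dpi (22.5%), 7 of 7 in heterozygous muscle (21%) and 6 of 7 in wild-type muscle at 21 dpi (19.9%). The wild-type counts at 3 and 7 dpi were 0 of 7 on each day (1.52% and 2.09%). Since the choice used these contrasts, nothing is read from the counts.

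Single libraries stood apart in the same way for several of the genes. Homozygous AAV library 4 at 21 dpi was the highest of its group for all 7 genes, and it also had the highest myofibre marker sum of the group (169707) and the lowest macrophage marker sum (322.7, against 2955 in the highest library). Without that library the changes were -3.51 for Ces1d, -3.17 for Fam57b, -3.14 for Plin4, -2.65 for Magix, -2.62 for Adhfe1, -2.35 for Klhl33 and -1.68 for Nt5c1a. Homozygous AAV library 4 at 3 dpi was the highest for 6 of the 7 genes. It had its group's highest myofibre sum (154618), lowest macrophage sum (381.6) and lowest transgene level (31.2). At 21 dpi the transgene level of homozygous AAV library 4 was 866.2, in a group at 127.4 to 1103. That of wild-type AAV library 2 was 999.2, in a group at 110.9 to 1267. Wild-type AAV library 2 at 21 dpi was the highest of its group for all 7 genes, with the lowest macrophage sum (345.5), and its myofibre sum (142393) was below those of libraries 3 (147307) and 4 (170827). Library 4, with the highest myofibre sum, was the lowest of the group for 4 of the 7 genes. The part of these sums and of the transgene level in the gene values was not tested.

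Summed myofibre markers fell with the gene set, while summed macrophage markers rose. Of 16 myofibre markers 12 fell and 0 rose in homozygous AAV muscle at 21 dpi, led by Tnnt3 (-1.15 ± 0.13, adjusted p = 3.88e-10, limma) and Myh4 (-1.85 ± 0.23, adjusted p = 3.6e-09), while Mylpf (-0.03) and Myl1 (0.03) were not called. Of 14 macrophage markers 13 rose and 0 fell, and their summed median was 957 in AAV muscle, against 84.6 in saline muscle. The heterozygous sums had medians of 166378 in AAV and 220657 in saline muscle for myofibre markers, and 361.1 and 100.7 for macrophage markers. In wild-type muscle at 21 dpi the medians were 144850 in AAV and 212589 in saline for myofibre markers, and 776.7 and 80.2 for macrophage markers. Divided by the myofibre marker sum of each library, the homozygous changes at 21 dpi were -2.38 for Ces1d, -2.05 for Fam57b, -1.79 for Plin4, -1.53 for Adhfe1, -1.51 for Magix, -1.10 for Klhl33 and -1.01 for Nt5c1a, and all genes shifted to a median of 0.84. On this scale the split of calls over all genes at 21 dpi became 318 lower and 10476 higher, against 3851 lower and 3863 higher as deposited. The heterozygous changes on this scale were -1.93 for Ces1d to -1.17 for Adhfe1 (all-gene median 0.36, 467 lower and 5632 higher calls). In wild-type muscle at 21 dpi 6 of the 7 kept a negative sign, at -0.97 for Nt5c1a to -0.36 for Magix, while Klhl33 turned to 0.12 (all-gene median 0.51, 116 lower and 8568 higher calls).

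**Figure D3:**
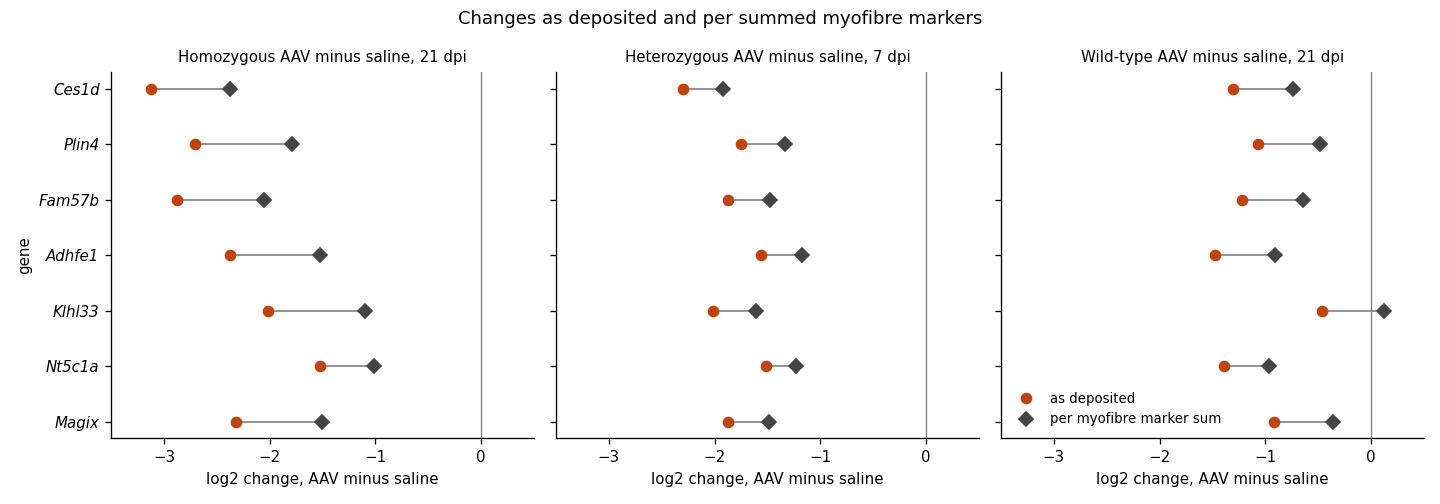
Log2 change, AAV minus saline, of each gene as deposited (circles) and after division by the library's summed myofibre markers (diamonds), in homozygous muscle at 21 dpi, heterozygous muscle at 7 dpi and wild-type muscle at 21 dpi. The diamonds lie nearer to 0 for all 7 genes in each panel, and Klhl33 in wild-type muscle crosses 0.

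Other cell types were followed with fixed marker lists. Plin4 and Ces1d are also made by fat cells, so adipocyte markers bear on them. Of 12 adipocyte markers 9 were in the table and 4 were tested. Adipoq, the defining adipokine, stood at 0.0268 to 4.77 over all libraries, and Lep, Adrb3 and Ucp1 were not among the genes of the table. The summed adipocyte markers had a median of 96.0 (74.9 to 111.7) in homozygous AAV muscle at 21 dpi, against 178.6 (134.8 to 212.5) in saline, most of it Fabp4 (medians of 78.8 in AAV and 143.1 in saline), which endothelial cells also express. Fabp4 fell by 0.88 (adjusted p = 2.86e-06, limma), Lipe, the hormone-sensitive lipase, changed by -0.67 (adjusted p = 0.00135) and Cfd by -1.14 (adjusted p = 0.0152), and Pparg was at -0.04. Per summed myofibre markers these became 0.05 for Fabp4, 0.20 for Lipe, -0.43 for Cfd and 0.65 for Pparg, of which Pparg alone was called. Their part in the result was not tested. All 8 endothelial markers fell in homozygous and wild-type AAV muscle at 21 dpi and 6 of 8 in heterozygous muscle, while per summed myofibre markers 2, 0 and 0 of 8 were called lower in homozygous, wild-type and heterozygous muscle. Of 6 mural cell markers 4 fell and 1 rose in homozygous muscle at 21 dpi, against 1 lower and 3 higher per summed myofibre markers. All 8 tested T and natural killer cell markers rose at 21 dpi in homozygous and wild-type muscle, and so did the 1 tested B cell marker and the 1 tested neutrophil marker, while 0 of these 10 were called in heterozygous muscle at 7 dpi. Of 9 fibroblast markers 7 rose in each of the 3 comparisons. Of 5 tendon markers 1 rose and 2 fell in homozygous muscle at 21 dpi (2 and 1 per summed myofibre markers), of 5 satellite cell markers 3 rose and 1 fell (4 and 0), and of 6 Schwann cell markers 0 were called (3 higher).

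A comparison that the choice did not use is that between genotypes in saline muscle, although the saline libraries also entered the contrasts that chose the genes. Over the 3 days, the homozygous saline libraries had a median of 24.0 for Ces1d (12 to 54.3, n = 12), against 46.3 in wild-type saline libraries (23.3 to 59.4, n = 10). The medians were 36.6 against 69.9 for Fam57b, 173.7 against 287.2 for Klhl33, 196.5 against 313.2 for Plin4, 4.14 against 6.32 for Nt5c1a, 23.7 against 31.6 for Magix and 33.1 against 41.1 for Adhfe1. The homozygous ranges overlapped the wild-type ranges for all 7 genes over the pooled days. Averaged over the days, a comparison chosen after the day-by-day values were seen, all 7 were called lower in homozygous saline muscle, beside 12.3% of all genes called and 5.04% called lower. The differences were -0.81 ± 0.18 (SE) for Fam57b (adjusted p = 0.000787), -0.79 ± 0.20 for Klhl33 (adjusted p = 0.0038), -0.78 ± 0.23 for Ces1d (adjusted p = 0.0192), -0.70 ± 0.21 for Plin4 (adjusted p = 0.0159), -0.51 ± 0.14 for Nt5c1a (adjusted p = 0.00744), -0.43 ± 0.13 for Magix (adjusted p = 0.0162) and -0.38 ± 0.13 for Adhfe1 (adjusted p = 0.0409, limma for all). The call of Adhfe1 was the least firm and was lost when any of 14 of the 22 libraries was left out (adjusted p 0.0514 to 0.0906). These were wild-type libraries 2 and 3 at 3 dpi, 1 and 3 at 7 dpi and 2, 3 and 4 at 21 dpi, and homozygous libraries 1, 2 and 3 at 3 dpi, 1 at 7 dpi and 1, 2 and 4 at 21 dpi. The call of Ces1d was lost without wild-type library 2 at 3 dpi (adjusted p = 0.068).

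On single days none of the 7 reached an adjusted p under 0.05 in homozygous minus wild-type saline muscle, although all 7 differences were negative on each day. Over all genes 2.28% were called at 3 dpi, 2.08% at 7 dpi and 3.32% at 21 dpi. By limma, 6, 4 and 2 of the 7 had an unadjusted p under 0.05 on these days. Over all 13017 tested genes, 1691, 1547 and 1793 had an unadjusted p under 0.05 in the same comparisons. Adjusted p-values at 21 dpi ran from 0.143 to 0.822. The differences at 3 dpi ran from -1.14 for Ces1d and -0.98 for Klhl33 to -0.53 for Adhfe1, at 7 dpi from -0.88 for Plin4 to -0.45 for Adhfe1, and at 21 dpi from -0.79 for Fam57b to -0.17 for Adhfe1. Heterozygous minus wild-type saline muscle at 7 dpi gave no call among the 7 (0.2% of all genes), with differences of 0.55 for Klhl33 (95% interval -0.15 to 1.25), 0.26 for Ces1d (-0.57 to 1.09), 0.04 for Magix, -0.01 for Fam57b, -0.14 for Nt5c1a, -0.19 for Plin4 and -0.27 for Adhfe1. Homozygous minus heterozygous saline muscle at 7 dpi gave 1 call among the 7 (5.12% of all genes), Klhl33 at -1.23 ± 0.32 (SE, 95% interval -1.88 to -0.59, adjusted p = 0.013, limma). Without homozygous saline library 1 at 7 dpi that call was lost (-1.04, adjusted p = 0.0933).

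**Figure D4:**
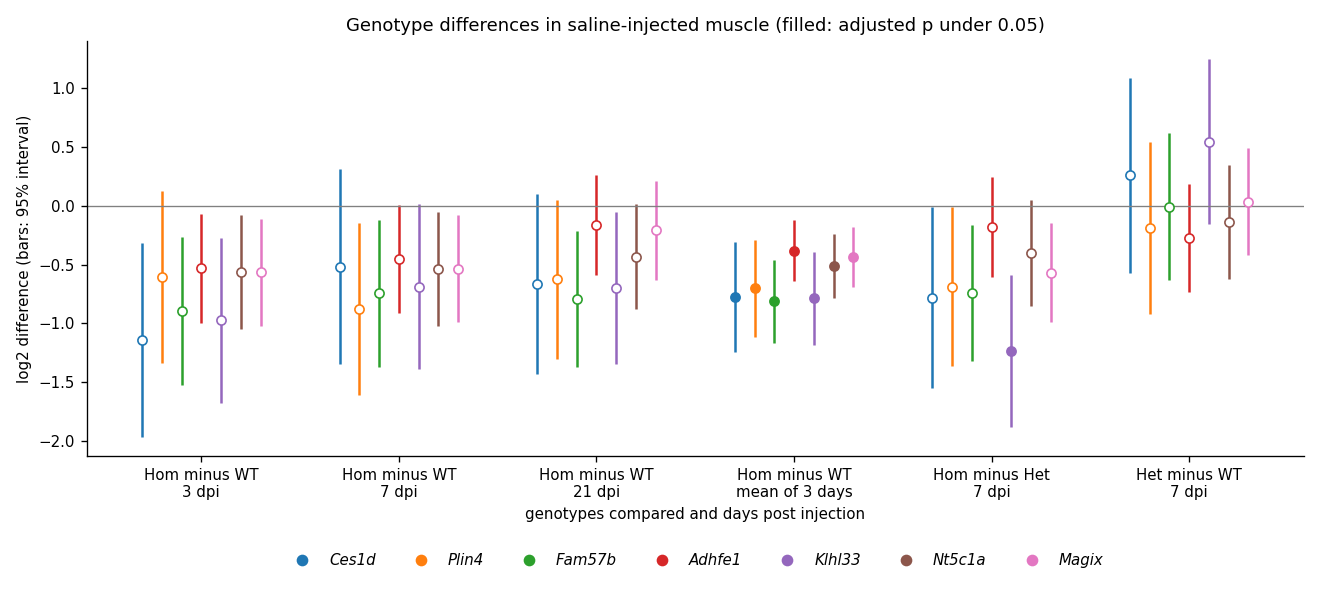
Log2 difference between genotypes in saline muscle for each of the 7 genes, with 95% intervals, on each day and for the mean of the 3 days, where filled points have an adjusted p under 0.05 (limma). All 7 points are filled for the mean of the 3 days, and Klhl33 alone is filled for homozygous minus heterozygous muscle.

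Myofibre marker sums of saline muscle differed between the genotypes by day. Their medians were 186350 in homozygous and 213626 in wild-type saline muscle at 3 dpi, 216577 and 210461 at 7 dpi, and 226072 and 212589 at 21 dpi. Per summed myofibre markers the median difference of the 7 genes was -0.48 at 3 dpi, -0.58 at 7 dpi and -0.70 at 21 dpi, against -0.60, -0.54 and -0.63 as deposited. In homozygous minus wild-type saline muscle over the 3 days, 3 of 16 myofibre markers were called higher and 0 lower, namely Myh2 (1.05 ± 0.26, adjusted p = 0.00362), Mb (0.38, adjusted p = 0.0294) and Myl1 (0.30, adjusted p = 0.01). Of 14 macrophage markers 1 was called, Cd68 (0.75, adjusted p = 0.0374, limma), and of 4 adipocyte markers 1, Lipe (-0.33, adjusted p = 0.037). Of 9 fibroblast markers 1 was called, Lum (0.38, adjusted p = 0.0164, limma), and of 5 satellite cell markers 1, Des (0.35, adjusted p = 0.000251). Their part in the difference was not tested. Divided by the myofibre marker sum, the differences of the 7 genes were -0.81 for Fam57b, -0.79 for Klhl33, -0.78 for Ces1d, -0.70 for Plin4, -0.50 for Nt5c1a, -0.44 for Magix and -0.39 for Adhfe1, and all genes had a median of -0.01. In saline muscle the days themselves gave no call among the 7. Homozygous muscle at 21 minus 3 dpi gave 1.04 ± 0.38 for Ces1d (adjusted p = 0.254, limma) and 0.48 for Adhfe1 (adjusted p = 0.352), with 0.0768% of all genes called, 10 genes by limma, 8 by edgeR and 86 by DESeq2. For the other day comparisons limma called 0% of genes (wild-type 7 minus 3 dpi, 0% for wild-type 21 minus 3 dpi and 0% for homozygous 7 minus 3 dpi), with 399, 716 and 807 genes at an unadjusted p under 0.05, 0 calls by edgeR in each, and 5, 16 and 5 by DESeq2.

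The 7 genes followed each other across the groups and within them. Over the 14 group means Pearson's r of the 21 pairs was 0.832 to 0.987, with a median of 0.954, given as a description because AAV and the choice of the genes set this pattern. After the group means were removed, r over the 56 libraries was 0.16 to 0.78 with a median of 0.6, and it was above 0 for all 21 pairs. These residuals share library composition. Within groups the members followed the myofibre marker sum (r of 0.75 for Ces1d, 0.6 for Klhl33, 0.58 for Nt5c1a, 0.54 for Plin4, 0.44 for Adhfe1, 0.41 for Fam57b and 0.4 for Magix) and ran against the macrophage marker sum (r of -0.36 for Fam57b to -0.6 for Klhl33). With the adipocyte marker sum r was -0.01 for Nt5c1a to 0.45 for Magix, at 0.06 for Ces1d and 0.32 for Plin4.

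The genes with the closest pattern over the 14 group means were named for each member, up to 3 each. This is a description, because AAV and the choice of the members set the pattern. After the group means were removed, r of members with the genes named below was lower, at -0.17 (Klhl33 with Ptprk) to 0.71 (Magix with Idh3a). For Ces1d they were Mettl11b (r = 0.987), Lifr (0.987) and Mto1 (0.983). For Plin4 they were mt-Co1 (0.992), Idh3g (0.991) and mt-Nd2 (0.989), of which Idh3g is a subunit of a citric acid cycle dehydrogenase and the others are mitochondrially encoded respiratory chain subunits. Fam57b was closest to Rilpl1 (0.993), Cdk16 (0.992) and Idh3g (0.992), and Adhfe1 to Foxo4, Bckdk and Dcun1d2 (0.99 each). Klhl33 was closest to Tom1l1 (0.986), Dglucy (0.983) and Ptprk (0.979), Nt5c1a to Mgme1 (0.982) and Ube2b (0.982), and Magix to Chpt1 (0.994), Ogdh (0.993) and Idh3a (0.993).

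Genes around the members were counted in lists that hold none of the 7, in homozygous AAV muscle at 21 dpi, where 29.6% of all genes fell and 29.7% rose. These directions are on the deposited scale, and per summed myofibre markers the medians of the lipid droplet, PPAR, hydroxybutyrate, kelch-repeat and PDZ lists turn positive. Of 22 genes of lipid droplet and triglyceride turnover 14 fell and 2 rose, with a median of -0.76. Lpin1, a phosphatidate phosphatase of triacylglycerol synthesis, fell by 1.78 ± 0.18 on the log2 scale (adjusted p = 2.05e-11, limma), Lpl, which frees fatty acids from lipoproteins, changed by -2.03 ± 0.26 (adjusted p = 6.66e-09), Cd36, a fatty acid transporter, by -1.58 ± 0.21 (adjusted p = 1.16e-08) and Abhd5, the co-activator of adipose triglyceride lipase, by -0.85 ± 0.11 (adjusted p = 1.06e-08). Of 20 PPAR target and lipid regulator genes 14 fell and 2 rose, with a median of -0.76. Ppara, a fatty acid-sensing nuclear receptor, fell by 1.58 (adjusted p = 3.12e-07, limma), its partner Rxra changed by -0.92 (adjusted p = 2.19e-08) and Cpt1b, which admits fatty acids to muscle mitochondria, by -1.32 (adjusted p = 2.39e-09), while Srebf2, a regulator of cholesterol synthesis, rose by 1.00 (adjusted p = 1.39e-07). Of 20 listed carboxylesterase relatives of Ces1d only 2 were tested, and Ces2g rose by 0.80 ± 0.21 (adjusted p = 0.00098) while Nceh1 fell by 0.93 ± 0.26 (adjusted p = 0.00179).

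The other lists differed in direction. Of 18 genes of ceramide and sphingolipid synthesis around Fam57b 9 rose and 3 fell, with a median of 0.28, and Cers6, a ceramide synthase, rose by 2.18 ± 0.30 (adjusted p = 2.64e-08, limma), Sgpl1 by 1.49 (adjusted p = 1.09e-07) and Ugcg by 1.31 (adjusted p = 8.34e-08), while Smpd1 fell by 0.62 (adjusted p = 8.56e-07). Of 16 genes of hydroxybutyrate and hydroxyglutarate metabolism around Adhfe1 13 fell and 0 rose, with a median of -0.90. Oxct1, which activates ketone bodies, fell by 1.38 (adjusted p = 3.21e-14, limma), Idh3a changed by -1.31 (adjusted p = 6.82e-12), Ogdh, of the 2-oxoglutarate dehydrogenase, by -1.15 (adjusted p = 2.32e-11) and Hibadh by -0.89 (adjusted p = 1.89e-11). Of 21 kelch-repeat genes and Cul3 partners 14 fell and 2 rose (median -0.53), among them Kbtbd13, a nemaline myopathy gene (-1.76, adjusted p = 1.06e-09), Klhl21 (-1.23, adjusted p = 6.18e-08), Cul3 itself (-0.88, adjusted p = 9.7e-09) and Keap1 (-0.50, adjusted p = 3.67e-07). Of 20 genes of adenine nucleotide turnover around Nt5c1a 8 rose and 8 fell (median 0.15), with Adk, the adenosine kinase, at -1.75 (adjusted p = 1.01e-12), Adssl1 at -1.36 (adjusted p = 7.57e-10), Ak3 at -0.96 (adjusted p = 3.57e-10) and Hprt at 0.97 (adjusted p = 1.68e-09). Of 16 PDZ scaffold genes set beside Magix 7 fell and 2 rose (median -0.19), with Pdzrn3 at -1.39 (adjusted p = 2.06e-09), Dlg1 at -0.80 (adjusted p = 9.24e-08), Mpp5 at -0.62 (adjusted p = 2.19e-06) and Mpp1 at 0.93 (adjusted p = 7.28e-07).

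**Figure D5:**
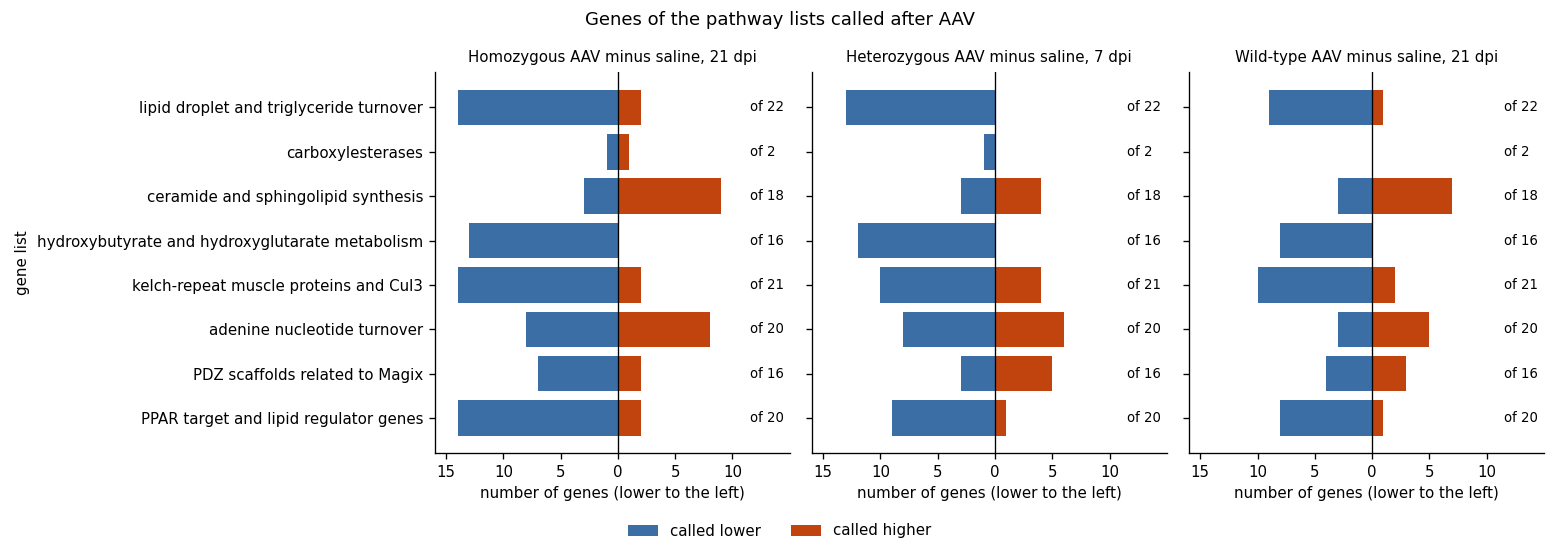
Number of tested genes of each pathway list called lower (to the left) and higher (to the right) in AAV minus saline muscle (limma, adjusted p under 0.05), in homozygous muscle at 21 dpi, heterozygous muscle at 7 dpi and wild-type muscle at 21 dpi. Falls outnumber rises in the lipid droplet, hydroxybutyrate, kelch-repeat and PPAR lists in all 3 panels on this scale, which per summed myofibre markers no longer holds in homozygous and wild-type muscle, nor for the kelch-repeat list in heterozygous muscle.

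The directions of the lipid droplet, PPAR, hydroxybutyrate, kelch-repeat and PDZ lists depended on the scale, while the medians of the ceramide and adenine lists were above 0 on both scales. Divided by the myofibre marker sum, 5 of 22 lipid droplet genes were called lower and 7 higher (median 0.08), 2 and 5 of 20 PPAR genes (median 0.12), 5 and 5 of 16 hydroxybutyrate genes (median 0.01), 2 and 12 of 21 kelch-repeat genes (median 0.39), 0 and 17 of 18 ceramide genes (median 1.14), 2 and 14 of 20 adenine genes (median 1.00) and 1 and 13 of 16 PDZ genes (median 0.63), beside an all-gene median of 0.84. Lpl (-1.10), Lpin1 (-0.85), Ppara (-0.87), Kbtbd13 (-0.94) and Adk (-0.84) stayed lower on that scale, while Abhd5 (0.06), Cul3 (0.06) and Hibadh (0.04) turned to small positive values that were not called, and Keap1 (0.43) and Smpd1 (0.30) were called higher. In heterozygous muscle at 7 dpi, as deposited, 13 of 22 lipid droplet genes fell and 0 rose, 9 and 1 of 20 PPAR genes, 12 and 0 of 16 hydroxybutyrate genes, 10 and 4 of 21 kelch-repeat genes, 3 and 4 of 18 ceramide genes, 8 and 6 of 20 adenine genes, 3 and 5 of 16 PDZ genes and 1 and 0 of 2 carboxylesterases. With same-numbered libraries as pairs, the lower calls there were 12 for lipid droplet, 2 for ceramide and 7 for adenine genes. In wild-type muscle at 21 dpi 9 of 22 lipid droplet genes fell and 1 rose, 8 and 1 of 20 PPAR genes, 8 and 0 of 16 hydroxybutyrate genes, 10 and 2 of 21 kelch-repeat genes, 3 and 7 of 18 ceramide genes, 3 and 5 of 20 adenine genes, 4 and 3 of 16 PDZ genes and 0 and 0 of 2 carboxylesterases. Per summed myofibre markers, lower and higher calls were 4 and 3 for lipid droplet genes, 6 and 1 for hydroxybutyrate genes, 5 and 1 for PPAR genes and 4 and 6 for kelch-repeat genes in heterozygous muscle, and 0 and 6, 0 and 7, 2 and 5, and 2 and 10 in wild-type muscle at 21 dpi.

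In saline muscle, homozygous minus wild-type over the 3 days, lists around the members were called in part, beside 12.3% of all genes. Of 22 lipid droplet genes 5 were lower and 0 higher, led by the perilipins Plin3 (-1.26 ± 0.13, adjusted p = 6.38e-10, limma) and Plin5 (-1.07 ± 0.24, adjusted p = 0.00135), followed by Pnpla3 (-0.53), Cd36 (-0.47) and Lipe (-0.33). Of 20 PPAR genes 5 were lower and 0 higher, namely Acot2 (-0.81), Ppargc1a (-0.40), Rxrg (-0.38), Cpt1b (-0.36) and Esrra (-0.27). Of 16 hydroxybutyrate genes 6 were lower, among them Aldh5a1 (-0.42, adjusted p = 6.38e-05), and Abat, the GABA transaminase, was higher (1.32 ± 0.16, adjusted p = 3.25e-08). Of 21 kelch-repeat genes 4 were higher, Klhl41 (0.72, adjusted p = 3.13e-10), Klhl34 (0.66), Klhl30 (0.65) and Klhl40 (0.65), of which Klhl40 and Klhl41 stabilise thin filament proteins and are nemaline myopathy genes in humans, and 4 were lower, Kbtbd13 (-0.50), Klhl21 (-0.40), Klhl2 (-0.25) and Klhl22 (-0.16). Klhl33, at -0.79, was thus lower while Klhl40 and Klhl41 were higher. Of 20 adenine genes 4 were higher, Ampd3 (0.78), Nt5c2 (0.73), Hprt (0.31) and Nt5c3 (0.21), and 2 lower, among them Ak3 (-0.22). Of 16 PDZ genes 3 were higher, Pdlim3 (0.89), Pdlim5 (0.30) and Mpp6 (0.30), and 0 lower, of 18 ceramide genes 1 was higher, Sgms2 (0.39), and of 2 carboxylesterases Nceh1 was lower (-0.50). Per summed myofibre markers the saline calls, lower and higher, were 4 and 0 for lipid droplet, 5 and 0 for PPAR, 7 and 1 for hydroxybutyrate, 2 and 3 for kelch-repeat, 1 and 2 for adenine and 1 and 2 for PDZ genes, with 0 calls for ceramide genes and carboxylesterases. The genes named in the saline comparison of the lists were chosen after their values were seen, mostly as those called in lists with 5 or fewer calls in a direction, and the first by p of the 6.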

How the data were processed

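RNA sequencing of 56 tibialis anterior samples was analysed through 1 deposited table. Per the labels' protocols, TRI reagent was used for RNA and a strand-keeping kit for the libraries. RSEM, Bowtie, FastQC and limma, with the build GRCm38/mm10, are listed in the submitters' processing notes without versions. RSEM divides reads that map to several genes. The authors deposited a linear normalised signal, and by its values each entry is a read number plus 0.5, divided by an effective library size. Undoing this gave whole reads for 99.999% of values (within 0.02 reads). No column was left unused (0), and no pair of libraries shared over 90% of its read counts (0 pairs).

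A gene was tested where its mean share of the column total was at least 1 CPM (13017, with 1853 left out and the transgene set aside). All 7 members passed. The main test was limma 3.58.1 with trend (R 4.3.3) on log2(value + 1), with 1 mean per group over all 56 libraries, and Benjamini-Hochberg adjustment per comparison at 0.05. edgeR 4.0.16 and DESeq2 1.42.0 on the whole reads were alternatives, with other pseudocounts, filters and scalings, a replicate block and each library left out in turn. The fits across genes were tested on simulated data. Libraries held 6.9 to 27.18 M reads (M, 1e6 reads), and low counts limit Nt5c1a most. GENCODE M21 held 14861 of the identifiers and lacked 9.

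The members and lists were chosen with earlier results of these data known. The rule for names was all 7 members, up to 4 genes per pathway list with the smallest p in homozygous muscle at 21 dpi, up to 3 closest patterns per member and the 3 largest falls outside the set with a saline mean of at least 5. Sample numbers were taken to pair AAV and saline libraries where the deviations of every pair correlated above 0.1, which held in homozygous muscle at 21 dpi (4 pairs, r 0.165 to 0.233) and heterozygous muscle at 7 dpi (4 pairs, 0.128 to 0.178), and in no other comparison checked. The labels state no pairing. A few genes that these rules would name are not reported here.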

Additional observations from a re-analysis of the deposited data

Results flagged for a closer look

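In groups of 4 or 5 libraries, 84 sets of member values were searched for a library far from the others. The criterion was a gap to the nearest neighbour that took up most of the range of the group. In all, 4 were found, which is about the number that chance gives, at 1 in 20 sets. Adhfe1 stood at 23.5 in homozygous AAV library 4 at 3 dpi, above the other 3 libraries at 13.5, 13.5 and 14.3. Adhfe1 stood at 25.6 in homozygous saline library 1 at 7 dpi, below the others at 35.2, 34.0 and 34.0. Adhfe1 stood at 32.7 in wild-type AAV library 1 at 7 dpi, below the others at 41.3, 40.8 and 42.7. Magix stood at 33.0 in heterozygous saline library 3 at 7 dpi, below the others at 35.5, 35.2 and 35.1, a gap of little size.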

How the results depend on the processing

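The median change of the members in AAV minus saline muscle kept its sign in homozygous and heterozygous muscle and in wild-type muscle at 21 dpi under every alternative run. Per myofibre marker sum it was -0.589, -0.92 and -1.529 in homozygous muscle at 3, 7 and 21 dpi, -1.479 in heterozygous muscle and -0.645 in wild-type muscle at 21 dpi, and with a pseudocount of 4 it was -1.967 in homozygous muscle at 21 dpi. A filter of at least 5 leaves out Nt5c1a. In saline muscle, fitting only the groups compared called 1, 3 and 3 members in homozygous minus wild-type muscle at 3, 7 and 21 dpi. It called 5 in homozygous minus heterozygous muscle, where a pseudocount of 4 called 2 and leaving out 1 library gave 0 to 1. Calls of that fit over all genes are not set beside these member counts here, and nothing is read from the counts. The mean of the 3 days called 5 to 7 members with 1 library left out, and 7 with the replicate block, which changed no call of a member. Adhfe1 also lost that call with a pseudocount of 0.25 (adjusted p = 0.0518, limma) and after quantile normalization (adjusted p = 0.0788); the cause was not tested. That block is shared by all groups. Blocks within the 2 paired comparisons, added after the data were seen, called 164 list genes in homozygous muscle at 21 dpi (164 without) and 121 in heterozygous muscle (124 without). In the other comparisons same-numbered libraries share only a number.

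Over all genes, the myofibre scaling moved the calls to 7867, 9875 and 8684 in homozygous muscle at 3 and 7 dpi and wild-type muscle at 21 dpi (4505, 5616 and 5329 as deposited), and in saline muscle to 189, 111 and 197 for homozygous minus wild-type (297, 271 and 432), 298 for homozygous minus heterozygous (667) and 933 for the mean of 3 days (1607). A fit of only the groups compared gave 1013 at 21 dpi. Heterozygous minus wild-type saline muscle gave 26 calls, and 7 to 62 under the alternatives. Homozygous saline muscle at 21 minus 3 dpi gave 10, and 6 to 86. Depth limits Nt5c1a most, whose log2 change in homozygous muscle at 21 dpi ran from -0.78 with a pseudocount of 4 to -2.21 by DESeq2.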
